A study of Mus musculus with 8 samples.

Results

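Long intergenic noncoding RNAs are transcripts with no evident coding sequence that are read from the stretches between protein-coding genes. Some act in cis on their neighbours, some act as scaffolds or decoys elsewhere in the cell, and for most of them no role is known. The array used here carries, beside its gene probes, a set of probes tiled over such regions on both strands, each region named only by its coordinates and strand. These region probes are described here in cells selected for CD31, the product of Pecam1, a surface protein of the vessel lining that is also found on platelets and leukocytes, from mouse embryos that lack the Gata2 +9.5 enhancer and from their wild type littermates. Gata2 is a GATA-family transcription factor gene on which blood stem and progenitor cells depend, and the +9.5 element is an intronic enhancer of that gene.

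The region probes are those of the array design whose names start with A_30_P. Of 16251 such probes, 15546 lay on an autosome by the coordinates in the files (genome build mm9) and 587 on chromosome X. Of the autosomal ones, 12649 passed the scanner software's test for signal well above background on 4 or more arrays out of 8, with no fewer than 3 values per group, and these are the members described below, out of 48110 probes of all kinds that were tested. They covered 4237 region strands of 4433 on the autosomes. The 2897 autosomal region probes that were left out include 930 that were well above background on no array. Of the members, 8644 were well above background on all 8 arrays, 929 on exactly 4, and 687 further autosomal region probes stood just outside the rule with 3. Because the rule asks for detection on 4 arrays of either group, a member may have entered through 1 group only. This was so for 97 members that were well above background on all 4 wild type arrays and at most 1 mutant array, and for 1 member in the other direction.

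All embryos were on the C57Bl/6J background at E12.5. The 4 mutants were homozygous for the enhancer mutation and the 4 controls were wild type, all from matings of heterozygotes, and each of 2 litters gave 2 embryos per genotype. The cells were enriched with anti-CD31 magnetic beads from 1 embryo each, after the fetal liver and the brain had been removed, so that the liver, a main site of blood formation at this stage, was not sampled. In both genotypes, samples 1 and 2 belong to litter 1 and samples 3 and 4 to litter 2. Each litter was hybridised on its own slide, so litter and slide cannot be told apart. In such bulk samples fewer cells of a type and less RNA per cell cannot be told apart either.

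The 60-base sequences of the region probes that differed most between the genotypes are shown first, because a region probe has no other identity than its sequence and position. They are written 5′ to 3′ as the files give them, in the order of the results below, and are shown for 6 of the 12 members with the lowest and 4 of the 8 with the highest mutant values among those whose groups do not overlap. None of the printed ones has a probe of a protein-coding gene within 10 kb. None of the 20 members holds AATAAA, the usual polyadenylation signal, so no letters are in capitals.
A_30_P01029022: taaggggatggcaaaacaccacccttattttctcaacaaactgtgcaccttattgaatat
A_30_P01028757: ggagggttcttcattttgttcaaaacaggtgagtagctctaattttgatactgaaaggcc
A_30_P01026652: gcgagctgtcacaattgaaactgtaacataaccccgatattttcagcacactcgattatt
A_30_P01032830: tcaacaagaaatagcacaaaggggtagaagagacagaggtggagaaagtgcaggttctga
A_30_P01018335: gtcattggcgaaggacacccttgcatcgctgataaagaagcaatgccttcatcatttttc
A_30_P01019347: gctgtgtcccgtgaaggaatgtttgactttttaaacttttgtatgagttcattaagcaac
A_30_P01025501: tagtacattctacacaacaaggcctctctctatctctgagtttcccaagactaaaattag
A_30_P01021618: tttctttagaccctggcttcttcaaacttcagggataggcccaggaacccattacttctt
A_30_P01031947: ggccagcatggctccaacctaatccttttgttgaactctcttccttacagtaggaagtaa
A_30_P01028703: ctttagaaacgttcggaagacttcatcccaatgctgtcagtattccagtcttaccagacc
The GC content of the 12 lowest ran from 35% to 51.7% with a median of 40%, that of the 8 highest from 38.3% to 45% with a median of 45%, and the median of all members was 45%.

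Levels are given as log2 of the processed signal minus the array's 75th percentile, so a probe at 0 is as bright as that percentile and most members lie below it. Gata2, the gene whose enhancer was mutated, checked the labels. It stood at 2.00, 1.66, 0.89 and 1.42 on wild type arrays 1 to 4 and at -1.24, -0.15, -1.27 and -1.07 on mutant arrays 1 to 4. The groups do not overlap, with a difference of -2.42 ± 0.38 (SE, n = 4 against 4, limma adjusted p = 0.0948). All 40 genes of an endothelial marker list, Pecam1, Cdh5 (VE-cadherin), Kdr and Tek among them, were well above background on all 8 arrays. The summed signal of that list ran from 665 to 2152 on wild type and from 845 to 2063 on mutant arrays, in units of the array's 75th percentile. Of the 30 genes of a platelet and megakaryocyte list, 28 were well above background on all 8 arrays, and the list summed to 120 to 212 on wild type and 51.9 to 102 on mutant arrays. Erythroid genes summed to 736 to 3080 and 1294 to 2901, macrophage genes to 71.9 to 126 and 79.7 to 111, mesenchymal genes to 119 to 394 and 172 to 382, and neural genes to 45.2 to 74.6 and 55 to 81.3. These lists overlap between genotypes apart from the platelet one. The part of any of these cells in the region probe signals was not tested.

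Region probes were detected less often than probes of all kinds on every array. They were well above background for 66.8%, 79.2%, 88.7% and 82.1% of region probes on wild type arrays 1 to 4 and for 68.3%, 63.8%, 76.6% and 89.2% on mutant arrays 1 to 4. Over all non-control probes the share ran from 74.9% to 92.0%. The median member stood at -3.08, -2.50, -2.26 and -2.53 on wild type arrays 1 to 4 and at -3.25, -3.26, -2.91 and -2.03 on mutant arrays 1 to 4. The order of the arrays follows neither genotype nor litter alone, since wild type 2 lies with litter 2 and mutant 3 lies with the lower arrays. The first principal component of the members, 56.7% of their variance, set wild type 2 and 3 and mutant 4 (55.9, 87.8 and 83.6) against wild type 1 and mutants 1, 2 and 3 (-54.6, -76.7, -78.1 and -35.2), with wild type 4 between them at 17.3. These 3 arrays stand apart in the region probes. Of 49 named members that could be fitted without them, 20 had a difference that moved by over 1.5 times or changed sign, 18 of these towards 0, and those values stand below beside the members described.

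**Figure D1:**
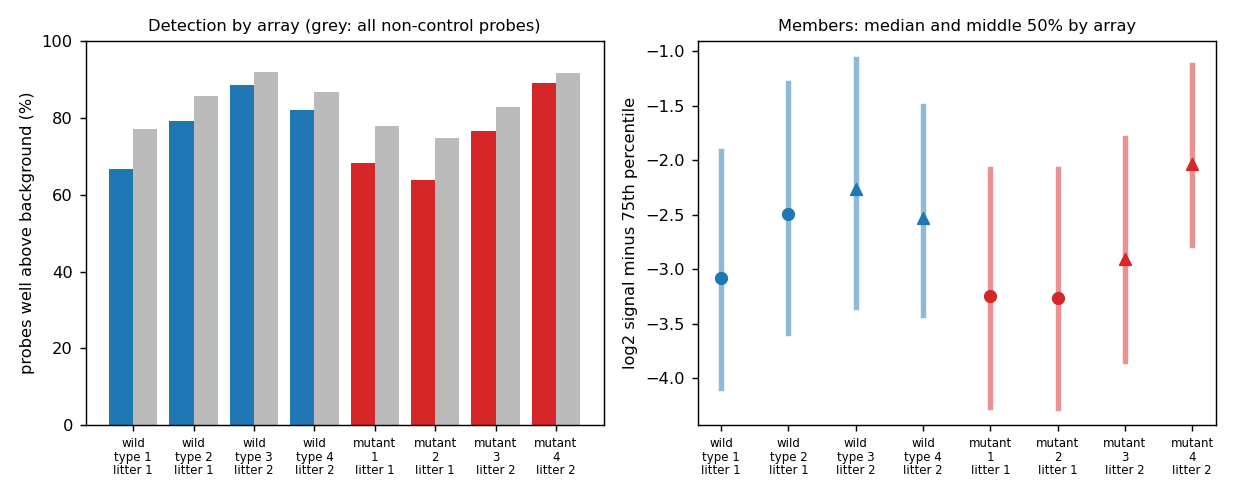
Left, share of region probes (coloured) and of all non-control probes (grey) well above background on each array, in percent. Right, median (symbol) and interquartile range of the members' levels on each array, as log2 signal minus the array's 75th percentile, wild type in blue and mutant in red. Region probes range from 63.8% on mutant 2 to 89.2% on mutant 4, the array that also has the highest member median, -2.03.

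The base composition of the 60-base probes went with detection. Of region probes with a GC content up to 35%, 58.7% became members, of those over 40% and up to 45% it was 84.9%, and of those over 55% it was 98.1%. Position mattered less. In regions of at least 5 kb, 83.4% of the most 5′ probes, 82.3% of the middle ones and 80.1% of the most 3′ ones became members, each region being cut into 3 equal lengths. Forward and reverse strand probes passed alike, 81.3% and 81.4%. The hexamer AATAAA occurred in 613 of the 15546 autosomal region probes (3.94%) and its reverse complement TTTATT in 477 (3.07%). Of probes with AATAAA 78.0% were members, and of probes with TTTATT 62.7%, against 81.4% of all.

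The first question was which noncoding regions change when the enhancer is lost. No member passed the test. In the limma fit over all 48110 probes 0 of 12649 members had a Benjamini-Hochberg adjusted p under 0.05, the lowest being 0.717. Over all tested probes 16 passed (0.0333%), all lower in the mutants and none of them a region probe. At an unadjusted p under 0.05, 341 members were lower (2.70%, against 2.55% of all tested probes) and 31 higher (0.245%, against 0.424%). The 4 mutant arrays lay wholly below the 4 wild type arrays for 27 members (0.213%, against 0.518% of all probes) and wholly above for 48 (0.379%, against 0.561%). In this scaling with all 8 arrays the share of members in each of these counts is close to or under that of all probes. Weights for array quality, which gave 4897 members past the threshold (38.7%, against 43.7% of all probes), and the authors' deposited values, which gave 3 (0.0276% against 0.129%), were the settings with any call among members. The weights ran from 0.256 for mutant 4 to 3.91 for mutant 1.

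The members' differences spread widely around a shifted centre. The median difference was -0.20, with an interquartile range from -0.66 to 0.22, while that of all tested probes was 0.08. Members were lower in the mutants in 7696 cases and higher in 4953. This centre moved with the scaling, to -0.00 with quantile normalization (6338 lower) and to 0.06 with the median in place of the 75th percentile (5913 lower), with all tested probes then at 0.06 and 0.34. Members lay below all tested probes by 0.28 in the main scaling, by 0.06 with quantile normalization, and below them in all 22 other settings. Without mutant 4 the member median was -0.51, 2047 members lay wholly lower (16.2%, against 12.1% of all probes) and 3006 were lower at an unadjusted p under 0.05 (23.8% against 17.2%), so members then exceeded the whole array, though 0 passed after adjustment.

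Set beside other probes in classes of brightness, the medians of members and others lay furthest apart in the brightest class. In the dimmest of 3 equal classes of members, split by mean level over the 8 arrays, the median difference was -0.16, against -0.23 for other probes in the same range of levels. In the middle class it was -0.29 against -0.25, and in the brightest -0.12 against 0.31. The brightest class runs from -2.07 to 8.18, with 4217 members and 21769 other probes. Levels of members and others were not matched within it. Under quantile normalization the members of the 3 classes had medians of 0.05, -0.03 and -0.02. Across members the difference correlated with mean level at r = 0.08 and with GC content at r = 0.07 (n = 12649 probes of the same 8 arrays, not independent of each other).

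**Figure D2:**
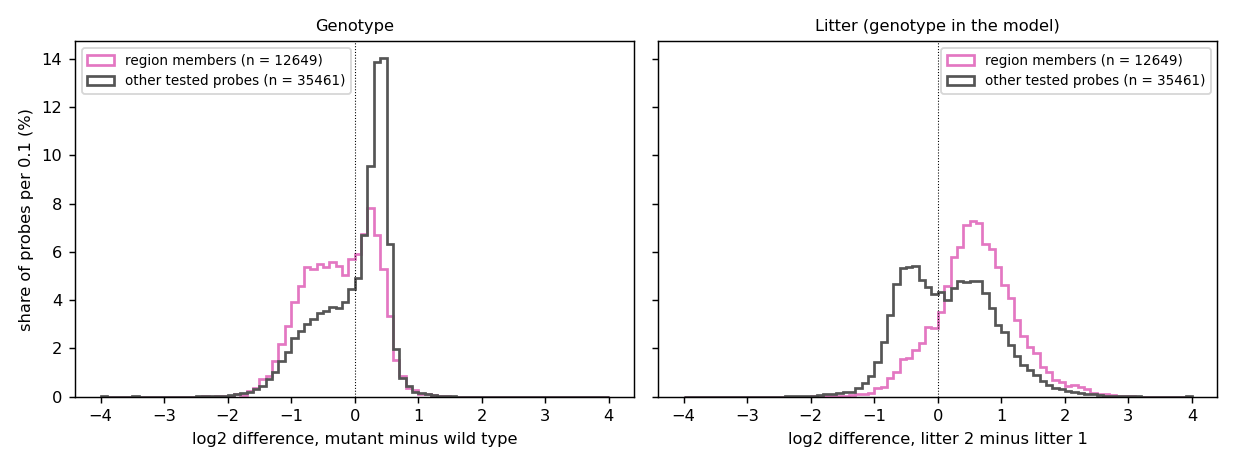
Distribution of log2 differences of the 12649 members (pink) and the 35461 other tested probes (dark grey), as a share of probes per bin of 0.1, for mutant minus wild type (left) and litter 2 minus litter 1 (right). Members centre at -0.20 and 0.59, all tested probes at 0.08 and 0.30, and values beyond 4 in either direction are in the end bins.

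The 12 members with the lowest mutant values among those whose groups do not overlap had differences from -2.02 to -1.29, each with an adjusted p of 0.717. The lowest was A_30_P01029022 on the minus strand of chromosome 13 (chr13:98062969-98063028), in a region of 29512 bases. It stood at -2.54, -2.11, -0.98 and -2.19 on wild type arrays 1 to 4 and at -3.38, -4.18, -4.97 and -3.39 on mutant arrays 1 to 4. All mutant arrays were below all wild type arrays in both litters (-1.45 in litter 1 and -2.59 in litter 2), with a difference of -2.02 ± 0.47 (SE), a 4.06-fold lower mean. The nearest named probe, for the transcript C430039J16Rik, lay 7.1 kb away on the other strand and differed by 0.58 ± 0.61.

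A_30_P01028757 (chr7:48868525-48868584, minus strand) read -2.90, -2.15, -2.0 and -2.34 in wild type arrays 1 to 4 and -5.77, -4.45, -4.06 and -2.96 in mutant arrays 1 to 4. Mutant 4 nearly met wild type 1, and the fitted difference was -1.96 ± 0.54 (SE), with 2 of 4 mutant arrays well above background. The closest named transcript, 2610021A01Rik at 14.1 kb on the other strand, had a difference of -0.85 ± 0.46. A_30_P01026652 (chr5:113629238-113629297, plus strand) stood at -3.16, -2.02, -2.38 and -2.24 in the wild type and at -3.82, -5.38, -5.04 and -3.18 in the mutants. Its groups touch at wild type 1 and mutant 4, and the fit gave -1.91 ± 0.51, again with 2 of 4 mutant arrays well above background. Tmem211, which encodes a transmembrane protein 38.8 kb along the same strand, had a difference of -0.80 ± 0.58.

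For a pair of members on chromosome 12 no mutant array was well above background, so both met the filter through the wild type alone. Only a bound can be given, for this scaling, from the lowest signal counted as well above background on each array. With normexp background correction A_30_P01023942 was at -0.42 and A_30_P01026098 at -0.36, nearer 0 than their log2 bounds of 0.84 and 0.87. A_30_P01023942 (chr12:82109479-82109538, minus strand), in a region of only 384 bases, was at least 1.79-fold lower in the mutants, with measured means of -4.03 ± 0.47 (SD, n = 4) in the wild type and -5.85 ± 1.04 (SD, n = 4) in the mutants. Its array values were -3.40, -4.02, -4.18 and -4.52 against -7.10, -5.69, -6.03 and -4.58, so that wild type 4 and mutant 4 nearly met. The nearest named gene on the same strand was Slc10a1, a bile acid transporter gene 48.0 kb away, at 0.25 ± 0.76. A_30_P01026098 (chr12:103157331-103157390, plus strand) was at least 1.83-fold lower, with means of -4.03 ± 0.18 and -5.32 ± 0.26 (SD, n = 4 each). Its values were -4.26, -3.95, -4.05 and -3.83 against -5.07, -5.57, -5.52 and -5.13, the tightest groups of the 12. It lies 0.5 kb from the probe of Atxn3, a deubiquitinase gene on the other strand, which differed by -0.49 ± 0.34.

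The brightest of the 12 each lacked 1 mutant value. A_30_P01032830 (chr5:137410638-137410697, plus strand) stood at -0.71, 0.07, 0.95 and -0.29 in the wild type and at -1.85, -1.27 and -1.59 in mutants 1 to 3, because the spot of mutant 4 was marked as an outlier and left out of the fit. The difference was -1.57 ± 0.45 over 4 against 3 arrays and -0.92 with that spot kept. Its neighbours on the same strand, Ift22, a gene of ciliary transport 21.8 kb away, and Fis1, a mitochondrial fission gene 18.7 kb away, differed by 0.58 ± 0.36 and 0.13 ± 0.29. The same array was missing for A_30_P01017527 (chr4:3435225-3435284), at -1.52 ± 0.61 and -1.02 with the spot kept, and for A_30_P01025549 (chr8:124624323-124624382), at -1.34 ± 0.49 and -0.69 with it kept. In each of these members the groups are separated only because mutant 4 was left out. With all outlier spots of every array kept, 22 of 12654 members lay wholly lower (0.174%, against 0.476% of all probes), in place of 27.

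The other 4 were A_30_P01031011 (chr1:34780531-34780590), A_30_P01018335 (chr17:24161017-24161076), A_30_P01019347 (chr2:181026802-181026861) and A_30_P01029817 (chr13:81775347-81775406), with differences of -1.49 ± 0.47, -1.34 ± 0.39, -1.33 ± 0.36 and -1.29 ± 0.38. The last was well above background on 1 of the 4 mutant arrays. A_30_P01018335 lies between 2 serine protease genes, Prss22 at 29.3 kb (-0.68 ± 0.45) and Prss27 at 14.1 kb (-0.05 ± 0.48). A_30_P01019347 lies 14.5 kb from Stmn3, a stathmin gene of neurons, on the same strand, which differed by 0.39 ± 0.56. In it the wild type values of -3.05, -2.26, -2.50 and -2.51 stood above mutant values of -4.07, -3.45, -4.60 and -3.51. None of the 19 neighbours found for these 12 members passed the test or was separated between the groups.

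**Figure D3:**
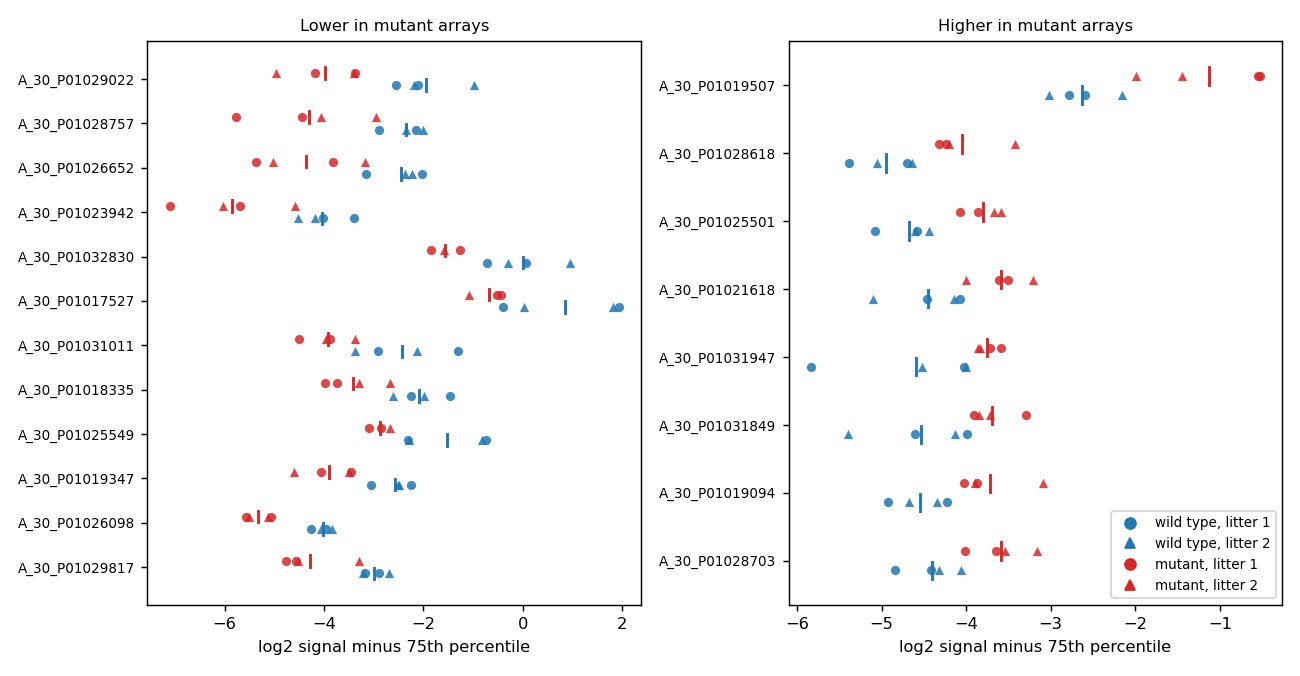
Levels of the 12 members with the lowest (left) and the 8 with the highest (right) mutant values among members whose groups do not overlap, as log2 signal minus the array's 75th percentile. Each symbol is an array (wild type blue, mutant red, circles litter 1, triangles litter 2) and the bar is the group mean. The differences run from -2.02 to -1.29 on the left and from 0.82 to 1.51 on the right, and none passed after adjustment.

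Higher values in the mutants were smaller. A_30_P01019507 (chr11:97484060-97484119, minus strand) stood at -2.59, -2.79, -3.01 and -2.15 in wild type arrays 1 to 4 and at -0.54, -0.53, -1.45 and -1.99 in mutant arrays 1 to 4. Its difference of 1.51 ± 0.41 (SE, 2.85-fold, limma adjusted p = 0.717) came with 2.15 in litter 1 and 0.86 in litter 2. The probe of 2410003L11Rik, a noncoding transcript of the other strand, lies 12 bases away and differed by -1.26 ± 0.61, in the other direction. The remaining 7 had differences of 0.82 to 0.90 and mutant means between -4.05 and -3.58, so they are among the dim members. All 7 were well above background on all 4 mutant arrays but on only 2 or 3 wild type arrays.

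A_30_P01025501 (chr7:118249240-118249299, minus strand) is an example, with -4.59, -5.08, -4.44 and -4.60 in the wild type and -3.86, -4.07, -3.67 and -3.59 in the mutants. Eif4g2, a translation factor gene 33.1 kb away on its strand, differed by 0.48 ± 0.38. A_30_P01021618 (chr6:82637360-82637419) lies between Pole4, a DNA polymerase subunit gene at 39.6 kb, and Hk2, the hexokinase 2 gene at 37.6 kb, which differed by 0.07 ± 0.43 and 0.52 ± 0.35. A_30_P01028703 (chr1:45577004-45577063) had no named gene probe within 100 kb. A_30_P01031849 (chr11:69185954-69186013), at 0.84 ± 0.38, shares a region of 425 bases with the member that differed most between the litters.

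Because these 20 members were chosen for groups that do not overlap and for size, their direction in other fits is no sign of stability. A move towards 0 is likewise built into the choice, and the values are given as a description only. Without wild type 2, wild type 3 and mutant 4 the difference moved by over 1.5 times in 6 of the 20, each time towards 0. It went to -0.49 in A_30_P01017527, to -0.97 in A_30_P01031011 and to -0.58 in A_30_P01025549 among the lowest. Among the highest it went to 0.30 in A_30_P01031947, to 0.43 in A_30_P01031849 and to 0.50 in A_30_P01028703. With wild type 2 alone left out A_30_P01031947 was at 0.43, and with wild type 3 alone left out A_30_P01031849 was at 0.55.

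The authors' deposited values sit near log2 signal less the array's median, though their centring is not stated. They put 3 members past the threshold in the same limma fit, and these were looked at after their values were seen. A_30_P01023352 (chr3:41214953-41215012) was well above background on all 4 wild type arrays but on mutant 4 alone among the mutants, so its fitted difference of -3.0 rests on mutant signals not above background, and its groups overlap. It read -3.76, -0.60, -0.41 and -3.08 in the wild type and -5.20, -5.49, -5.74 and -3.41 in the mutants, with no named gene probe within 100 kb. A_30_P01025966 (chr4:146019808-146019867) had a fitted difference of -2.49, with mutant 4 at -3.04 and the other 3 mutants, not well above background, between -6.41 and -5.40. A_30_P01021300 (chr13:94069872-94069931), 46.7 kb from the synaptic scaffold gene Homer1, stood at 1.10 with the mutant 1 spot left out as an outlier. With that spot kept it was at 2.25, so its size depends on 1 marked spot. In the authors' deposited table itself 2 of 10874 members have an adjusted p under 0.05, A_30_P01023352 with a log2 fold change of -2.73 and A_30_P01021300 with 2.51.

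Several probes lie on each region strand, which allows a region to be read more than once on the same array. Of 2411 region strands with at least 3 members, 536 had all members lower in the mutants, 204 had all higher and 1671 had both. The difference ranged by 0.95 (median) within such a region strand, and the SD of differences within region strands was 0.50 against 0.55 over all members. Probes of 1 region thus disagreed nearly as much as probes of different regions. Of 978 regions with members on both strands, the strand means had the same sign in 579, and correlated at r = -0.11 across regions.

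With the probes of a region strand averaged before the fit, 0 of 4237 passed (lowest limma adjusted p = 0.699), against 20 of 39698 features in that fit (0.0504%), and 2 were wholly lower (0.0472%, against 0.564% of all features) and 10 wholly higher (0.236% against 0.584%). The 4 largest mean differences among region strands with at least 3 probes were all lower. On the minus strand of chr12:53669892-53710742, 3 of 3 probes were lower, by -1.53 to -1.03. The mean was -1.31 ± 0.58 (SE). The averaged levels were -2.63, -1.08, -0.62 and -2.25 in the wild type and -3.30, -3.78, -3.29 and -1.47 in the mutants, so mutant 4 lay among the wild type arrays. The same was seen at chr7:71221826-71222801 (-1.21 ± 0.58), with mutant 4 at -1.50 and the wild type at -2.91 to -1.24, and at chr4:59093960-59122541 (-1.22 ± 0.51), with mutant 4 at -1.89. At chr16:45014806-45029475, whose nearest named gene at 69.3 kb is Cd200r3, a receptor gene of basophils and mast cells at -1.78, the mean was -1.21 ± 0.61 and mutant 4 stood at -2.06.

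The largest disagreement within a region strand was at chr4:146017200-146029700, where 4 probes ran from -2.49 to 0.40. The next was chr11:97457180-97487074, the region of A_30_P01019507, where 6 probes ran from -1.29 to 1.51 and averaged -0.25 ± 0.40. In that region A_30_P01019507 was higher in the mutants while 4 of the 6 probes were lower.

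No region probe lay within 500 kb of Gata2 itself. The nearest member on chromosome 6, A_30_P01026039 (chr6:89208061-89208120), was 1052 kb away and differed by -0.28 ± 0.39.

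Members were next set beside their nearest named gene. Within 5 kb on the same strand, 1727 members had a median difference of 0.02, and their differences correlated with the neighbour's at r = 0.22. Within 5 kb on the other strand the median of 1433 members was -0.26 and r was -0.05. At 5 to 20 kb r was 0.03 on the same strand (n = 1892) and -0.02 on the other (n = 1542), and at 20 to 100 kb it was 0.00 for 2473 and -0.00 for 2180 members. The 1402 members with no named gene probe within 100 kb had a median of -0.30. These correlations are across probes that share the 8 arrays and often a gene, and are descriptions only. The neighbours' own median difference ran from 0.21 to 0.27 over these classes, so that it was members close to a gene on its own strand whose median lay nearest to that of genes.

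Among the genes that fell in the mutants were platelet genes (Gp1ba, Gp9 and Treml1) and granulocyte genes (Mpo, S100a8 and S100a9). Members within 100 kb of such genes were found through lists of blood, endothelial and other genes. Near the platelet and megakaryocyte list 18 members on 5 region strands were found, at 2 of the 30 genes. Of these 15 were lower and 3 higher with a median of -0.83, against -0.20 for all members and 0.08 for all tested probes, 1 was lower at an unadjusted p under 0.05, and 0 passed. Under quantile normalization the median was -0.62. The platelet gene list itself was lower by a median of -2.04 with 3 genes past the threshold, and its summed signal was separated between the genotypes as given above.

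Of the 18, 15 lie 31.9 to 36.6 kb from the probe of Plek. This gene encodes pleckstrin, a protein kinase C substrate of platelets and leukocytes, and stood at 2.63, 1.91, 2.81 and 2.78 in the wild type and at -0.75, 0.55, 0.42 and 0.06 in the mutants, -2.46 ± 0.39 (limma adjusted p = 0.0938). The lowest member beside it, A_30_P01028141 (chr11:16838949-16839008, same strand as Plek), read -3.58, -1.20, -0.74 and -2.59 in the wild type and -4.44, -3.73, -4.14 and -1.96 in the mutants, -1.54 ± 0.70. Unlike Plek, it overlaps between genotypes, with wild type 2 and 3 high and mutant 4 above wild type 1 and 4. A_30_P01019494 (chr11:16839218-16839277) on the other strand also had wild type 2, wild type 3 and mutant 4 highest, -3.46, -1.14, -0.51 and -4.10 against -3.81, -3.89, -4.50 and -2.88, with a difference of -1.47 ± 0.75. Without those 3 arrays it was at -0.29, and A_30_P01028141 at -1.02, and without wild type 3 alone A_30_P01019494 was at -0.87. In A_30_P01020020 (chr11:16839336-16839395) the difference was -1.07 ± 0.60, and -0.70 without wild type 3. The brightest member of the locus, A_30_P01030698 on the strand of Plek, stood at 0.60, 0.01, 0.15 and 0.32 against 0.86, 0.88, 0.68 and 0.47 and was not lower, at 0.45 ± 0.30. The other 3 members near this list are 83.1 to 83.8 kb from Nfe2, a transcription factor gene of platelet formation that differed by -1.01, and ran from -1.0 to -0.46.

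**Figure D4:**
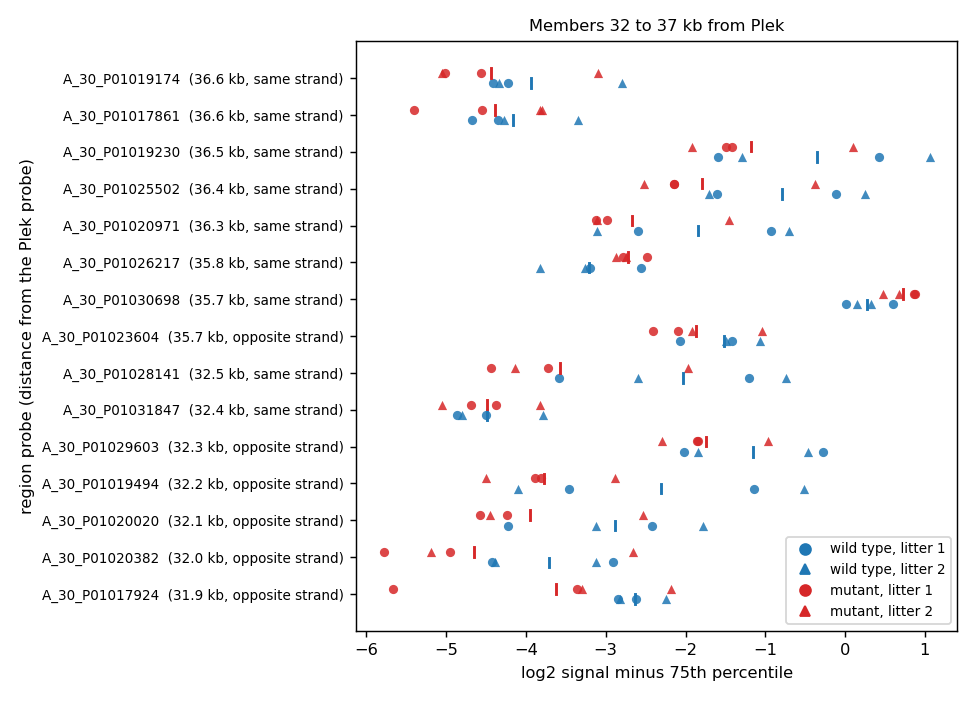
Levels of the 15 members 31.9 to 36.6 kb from the probe of Plek, ordered by distance, as log2 signal minus the array's 75th percentile. Symbols are arrays as labelled (wild type blue, mutant red) and bars are group means. In 10 of 15 rows wild type 2, wild type 3 and mutant 4 are the 3 highest arrays, and no row separates the genotypes.

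Near granulocyte genes there were 16 members at 3 of the 26 genes, 14 lower and 2 higher with a median of -0.36, and -0.08 under quantile normalization. Of these 12 lie 45.5 to 46.4 kb from S100a8, which with S100a9 encodes the calprotectin of neutrophils and was lower by -3.98 ± 0.52 (limma adjusted p = 0.0431). Their differences ran from -1.07 to 0.12, with a median of -0.38 that was -0.10 under quantile normalization. The lowest, A_30_P01024183 (chr3:90427951-90428010), read -1.40, 0.84, 0.81 and -0.82 against -1.44, -1.92, -1.84 and 0.35. Mutant 4 stood above wild type 1 and 4, and the difference was -1.07 ± 0.65, or -0.62 without the 3 arrays that stand apart. A_30_P01025833 (chr14:55317600-55317659), 11.5 kb from the granulocyte transcription factor gene Cebpe, was at -1.21 ± 0.69 (-0.50 without those 3 arrays), while the other 2 members of its 3-probe region were at -0.30 ± 0.72 and 0.44 ± 0.40. Beside Hdc, the histamine-forming enzyme gene of mast cells and basophils, which fell by 3.53 (limma adjusted p = 0.0296), the members 82.1 kb away, A_30_P01031271 and A_30_P01018289, were at -0.28 ± 0.32 and 0.09 ± 0.42, and at -0.43 and -0.060 without those 3 arrays. The 38 members within 100 kb of genes that passed the test, counted after those genes were known, lie at Hdc, S100a8 and Rab44 and had a median of -0.32.

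The macrophage list had 46 members nearby (31 lower, median -0.33). At Fcgr1, the gene of the high-affinity IgG receptor, 12 of 15 were lower. A_30_P01022407 (chr3:96082796-96082855), 4.0 kb from Fcgr1 on the other strand, stood at -1.15, 0.36, -0.17 and -0.62 in the wild type and at -1.44, -2.32, -2.21 and -0.79 in the mutants, -1.29 ± 0.45. A_30_P01028385 in the same region was at -1.31 ± 0.64 with the spot of wild type 4 left out, and A_30_P01024643, 47.8 kb from the gene, at -1.18 ± 0.49. Fcgr1 itself differed by -0.68. The stem and progenitor list had 66 members nearby (41 lower, median -0.18). Among them was A_30_P01019623, 26.5 kb from the homeobox gene Meis1 (-1.28 ± 0.53). A_30_P01030477 and A_30_P01030140, 86.5 and 9.7 kb from Mecom, a zinc-finger gene of blood stem cells, were at -1.15 ± 0.47 and -1.12 ± 0.57. Meis1 and Mecom themselves differed by 0.24 and 0.14. The 35 members near Mecom had a median of 0.02, with 15 lower. Of the 12 members near Ikzf2, 11 were lower.

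Erythroid genes had 23 members nearby (16 lower, median -0.37), led by A_30_P01019448 and A_30_P01022563 at 84.8 and 84.5 kb from Klf1, an erythroid transcription factor gene (-0.92 ± 0.54 and -0.83 ± 0.39), and A_30_P01023349 near Ank1 (-0.90 ± 0.54). Endothelial genes had 27 (17 lower, median -0.31), and 2 of the 3 members 18.4 to 21.3 kb from Dll4, a Notch ligand gene of arteries, were both at -1.0 (SE 0.59 and 0.61) and the other at -0.69, while Dll4 was at 0.16. A_30_P01019260, 45.7 kb from Cdh5, was at -0.80 ± 0.53. The 7 members near Cdh5 had a median of 0.21, with 2 lower, and Cdh5 itself was at 0.51. Mesenchymal genes had 27 (19 lower, median -0.38), with A_30_P01029694 and A_30_P01028255 beside Foxc2, a forkhead gene, at -1.26 ± 0.61 and a fitted -1.25 ± 0.75, the latter well above background on mutant 4 alone among the mutants, and A_30_P01027750 near Cspg4 at -1.19 ± 0.75. Neural genes had 20 (13 lower, median -0.30), with A_30_P01022720 near Sox2 at -1.23 ± 0.75 and A_30_P01022412 and A_30_P01027264 near Neurog1 at -1.06 ± 0.74 and a fitted -0.85 ± 0.60, the latter also well above background on mutant 4 alone among the mutants. Without wild type 2, wild type 3 and mutant 4, A_30_P01019448 was at -0.52, A_30_P01023349 at -0.58, A_30_P01022932 and A_30_P01024753 near Dll4 at -0.62 and -0.26, A_30_P01019260 at -0.40 and A_30_P01022720 at -2.0. Single arrays moved others by over 1.5 times, with A_30_P01022412 at -0.56 and A_30_P01027264 at -0.49 without wild type 3, and A_30_P01022720 at -0.47 and A_30_P01027750 at -0.50 without mutant 1. No member near any of these lists was separated between genotypes, and 0 passed. The medians near blood, endothelial, mesenchymal and neural genes, apart from the platelet list, lay between -0.38 and -0.09. Under quantile normalization they lay between -0.18 and 0.14.

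**Figure D5:**
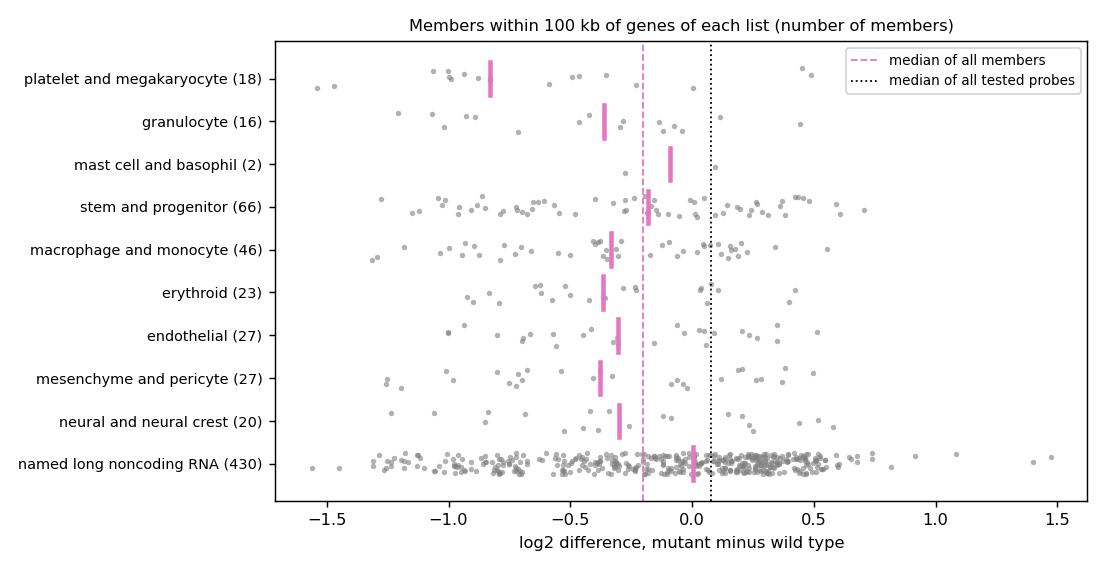
Differences between mutant and wild type (log2) of the members within 100 kb of the genes of each list, 1 point per member, with the list's median as a pink bar. The dashed line is the median of all members, -0.20, and the dotted line that of all tested probes, 0.08. The platelet and megakaryocyte list has the lowest median, -0.83, from 18 members at 2 loci.

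Noncoding RNAs with a name of their own have gene probes, and region probes often tile the same locus. Of 63 listed ones 39 were tested at their own probes, 0 passed, 8 were lower and 31 higher, with a median of 0.31, and 1 had an unadjusted p under 0.05. Of all tested probes 46.1% were lower, with a median of 0.08, and 2.97% had an unadjusted p under 0.05 in the limma fit. The other probes in the brightest class above had a median of 0.31 as well, with 26.1% lower. The listed ones were not matched to them by level. The brightest were H19, the imprinted maternal transcript of embryonic tissue, Meg3 of the Dlk1-Dio3 imprinted cluster, Zfas1 and Snhg6, which host small nucleolar RNAs, Peg13 and Norad, with differences of 0.45 ± 0.39, 0.46 ± 0.48, 0.47 ± 0.35, 0.45 ± 0.36, 0.20 ± 0.38 and 0.28 ± 0.37. The single one with separated groups was Six3os1, an antisense transcript of the homeobox gene Six3. It stood at -0.80, -0.99, -1.17 and -0.66 in the wild type and at 0.75, 0.07, 0.28 and -0.07 in the mutants, 1.16 ± 0.32 (limma adjusted p = 0.717). Its 3 nearby region members, 77.6 to 78.3 kb from another probe of the gene that was itself at -0.74, in the other direction, ran from -0.45 to 0.22. Fendrr, the noncoding neighbour of Foxf1 in mesoderm, was at -1.17 ± 0.54, and 10 of 13 members near it were lower with a median of -0.70.

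Near this list as a whole 430 members on 125 region strands had a median of 0.00, with 215 lower and 215 higher. Some loci were uniform. All 5 members 0.14 to 0.40 kb from another H19 probe differed by 0.53 to 0.59, while that probe was at -0.16 and so disagreed with the first. The 3 members beside Norad differed by 0.26 to 0.30. At Malat1, an abundant nuclear transcript, 12 of 13 members were higher with a median of 0.25. These directions depend on the scaling, since the median at quantile normalization was 0.14 at H19, -0.09 at Norad and -0.13 at Malat1. At Tug1 the median of 31 members was 0.26 in both scalings, with 10 lower.

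The 3 members with the largest differences near named noncoding RNAs were A_30_P01032377 2.6 kb from Lockd, A_30_P01023997 near Mirg and A_30_P01026659 15 kb from Morrbid. A_30_P01032377 (chr6:134898805-134898864), on the strand opposite to Lockd, a transcript beside the cell cycle inhibitor gene Cdkn1b, read -1.84, 0.43, 0.30 and -0.75 against -2.05, -2.37, -3.19 and -0.49, -1.56 ± 0.64. A_30_P01023997 (chr12:110968881-110968940), on the strand of Mirg in the Dlk1-Dio3 cluster, read -5.87, -5.26, -4.77 and -3.63 against -4.22, -4.35, -2.88 and -2.19, 1.47 ± 0.60. It was well above background on 2 of 4 wild type arrays. Between the litters it differed by 1.56 ± 0.34 (limma adjusted p = 0.0368). A_30_P01026659 (chr2:128126976-128127035), opposite to Morrbid, a myeloid transcript near Bcl2l11, read -1.12, -0.21, 0.21 and -1.31 against -2.09, -1.75, -3.42 and -0.98, -1.45 ± 0.54. In each of the 3 the groups overlap, and A_30_P01023997 was at 0.93 without the 3 arrays that stand apart. Lockd, Mirg and Morrbid themselves were at 0.36, 0.45 and 0.24. Near Lockd 12 of 16 members were lower (median -0.43), near Mirg 18 of 40 (median 0.09) and near Morrbid 8 of 19 (median 0.11).

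In this scaling members passed the test for litter, while 0 passed for genotype, whether fitted alone or with litter as a block. With genotype in the model 804 members were higher in litter 2 (6.36%, against 4.19% of all tested probes) and 31 lower (0.245%, against 0.985%), at an adjusted p under 0.05. The median member was higher in litter 2 by 0.59, against 0.30 for all probes. Under quantile normalization 88 were higher and 40 lower, with the median in place of the 75th percentile 210 and 61, and with normexp background correction 254 and 41, so both the count and its split follow the scaling. In both directions together 6.60% of members passed in the main scaling, against 5.17% of all probes. The shares were 1.01% against 1.81% with quantile normalization, 2.14% against 2.59% with the median and 2.33% against 3.06% with normexp, so the higher share among members was not seen there. Leaving out single arrays gave 22 to 1687 members past the threshold, 22 without mutant 2, 76 without mutant 1, 119 without mutant 3, 223 without wild type 4, 239 without mutant 4, 303 without wild type 1, 876 without wild type 3 and 1687 without wild type 2. The difference was larger in dim members, with medians of 0.88, 0.61 and 0.36 in the dim, middle and bright class and r = -0.44 with mean level over 12649 members. The 804 had a median level of -3.32, and 364 of them were well above background on all 8 arrays, while 212 were so on no litter 1 array and entered through litter 2 alone. Beside this, detection of region probes was 63.8% to 79.2% on litter 1 arrays and 76.6% to 89.2% on litter 2 arrays. The summed endothelial marker signal was 1232 to 2152 in litter 1 and 665 to 1210 in litter 2, and the erythroid one 736 to 1388 and 1533 to 3080. Their part in the litter difference was not tested.

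The 5 members with the largest fitted litter differences read low on all 4 litter 1 arrays. A_30_P01030958 (chr11:69185757-69185816), 19.6 kb from Cyb5d1, stood at -5.65, -5.57, -5.24 and -6.73 on the litter 1 arrays (wild type 1 and 2, mutant 1 and 2) and at -2.55, -1.09, -1.69 and -2.02 on the litter 2 arrays. It was not well above background on any litter 1 array and met the filter through litter 2 alone, so its litter test is no support. Only a bound can be given, at least 8.58-fold higher in litter 2. The same holds for A_30_P01018588 (chr2:175691592-175691651), at least 5.11-fold higher, and for A_30_P01028339 (chr5:35897001-35897060), 2.9 kb from the tRNA methyltransferase gene Trmt44, at least 4.01-fold higher. A_30_P01018949, in the Fcgr1 region on the minus strand, was at least 3.74-fold higher. Neighbouring probes did not share differences of this size. A_30_P01031849, on the same region strand as A_30_P01030958, differed by -0.32 ± 0.35 between the litters. On the region strand of A_30_P01018949 the other members ran from 0.26 ± 0.25 (A_30_P01027619) to 1.23 ± 0.49 (A_30_P01027054). A_30_P01031965 (chr10:6511368-6511427) was well above background on 2 of the 4 litter 1 arrays and differed by 3.08 ± 0.50. In the direction of litter 1, chosen after the values were seen, A_30_P01018039 (chr16:8738913-8738972) differed by -2.33 ± 0.37. A_30_P01026280 (chr3:87772547-87772606), 11.7 kb from the intermediate filament gene Nes, stood at 3.55, 2.89, 3.79 and 3.67 in litter 1 and at 0.56, 1.32, 1.74 and 1.43 in litter 2, -2.22 ± 0.29. None of their nearest named genes passed for litter, with differences between -0.56 and 0.52.

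Whether the enhancer mutation acted differently on region probes in the litters was tested with an interaction term. No member passed (0 of 12649, and 0% of all 48110 probes), and at an unadjusted p under 0.05 9 members had a lower value of the term (0.0712%, against 0.0748% of all probes) and 224 a higher one (1.77% against 1.17%).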

How the data were processed

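Total RNA of 8 embryos was hybridised to one-colour 60-mer arrays, 1 array per embryo. Per the file headers, the deposited signal intensity of each spot was background-subtracted and detrended within the array by Agilent Feature Extraction 10.7.3.1, with no step between arrays. The authors' table holds log2 values per sample and a log2 fold change, made with limma (version not given in the sources used here), per the submitters' processing notes and the file headers. Its values sit near log2 signal less the array's median, with the centring not stated. The p-values and adjusted p-values of that table are the authors' own, as deposited.

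Levels were log2 of the processed signal less the 75th percentile of the non-control spots on each array. Spots marked as outliers were dropped, and repeated spots of a probe were averaged. All 48110 probes that were well above background on at least 4 arrays with at least 3 values per group entered lmFit and eBayes of limma 3.58.1 in R 4.3.3, with Benjamini-Hochberg adjustment over all of them and a threshold of 0.05. Genotype was fitted alone, litter with genotype, and their interaction in a further model, each on all 8 arrays. The script was tested on simulated data. Every p measures the spread between embryos, and 4 arrays a group limit the precision. Each level of the litter test is a single litter on its own slide, so its p does not measure the spread between litters.

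Probes are named by this rule: members past the threshold; the 12 lowest and 8 highest whose groups do not overlap, well above background on all 4 arrays of a group, 1 per region strand; their nearest named genes within 100 kb; up to 3 members per list within 100 kb of its genes; 4 region strands of at least 3 probes with the largest mean and 2 with the largest range; members within 500 kb of Gata2; the 6 brightest named noncoding RNAs; the 5 largest litter differences. Members, lists and rule were chosen with earlier results of these data known, and members on chromosome 18 are counted but not named. Promoter sequences were not used. Alternatives covered scaling, background correction, filters, array weights, outlier spots, a floor at the 5th percentile, 1 probe per gene, the deposited values, blocks by litter and by sample number, and leaving out arrays.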

Additional observations from a re-analysis of the deposited data

Results flagged for a closer look

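Single arrays that stood apart within a group of 4 by Dixon's test were found in 9 of 91 groups examined, where chance gives about 1 in 20. In 6 of the 9 the array was mutant 4, high in each. A_30_P01029817, among the 12 lowest members, had mutant 4 at -3.30 against -4.76 to -4.52 for the other mutants. A_30_P01028618, among the 8 highest, had it at -3.42 against -4.32 to -4.21. Beside Plek, A_30_P01020020 had it at -2.54 against -4.57 to -4.24 and A_30_P01020971 at -1.46 against -3.12 to -2.99. Beside S100a8, A_30_P01021653 had it at -0.81 against -2.27 to -2.20 and A_30_P01022988 at -1.93 against -3.77 to -3.62. The remaining 3 were mutant 3 of A_30_P01019094 near Rbms1, at -3.09 against -4.03 to -3.87, wild type 3 of A_30_P01019174 beside Plek, at -2.79 against -4.41 to -4.23, and wild type 4 of A_30_P01023502 beside S100a8, at -0.01 against -0.63 to -0.53. Probes of a locus share the array, so these are not independent of each other. Mutant 4 is also the array with the most region probes well above background, 89.2%, and the part of that in these values was not tested.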

How the results depend on the processing

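No member passed for genotype in the main scaling or in 20 of the 22 alternatives. The exceptions were array weights, with 4897 members past the threshold (38.7%, against 43.7% of all probes) and, for the genotype difference of regions, 2011 region strands (47.5%, against 53.5% of all features), and the authors' deposited values, with 3 members. With litter as a replicate block 0 passed, and 543 members were lower (4.29%, against 3.67% of all probes) and 109 higher (0.862% against 1.19%) at an unadjusted p under 0.05 in that limma fit. With the sample number as a replicate block 0 passed as well (406 lower, 3.21% against 2.86% of all probes, and 59 higher, 0.466% against 0.609%, unadjusted), and same-numbered samples correlated at 0.42, 0.11, -0.19 and -0.18, so the numbers do not pair them. For litter, 835 members passed in the main scaling, 128 with quantile normalization, 271 with the median, 295 with normexp, 541 among members well above background on all 8 arrays, and 22 to 1687 with 1 array left out. Of 50 members named as the most changed by genotype or beside listed genes, 45 passed with array weights and none in another setting. Members named for the deposited values or for litter are not among these 50. Of the 50, only A_30_P01018289 beside Hdc changed sign, to -0.49 with array weights, -0.060 without wild type 2, wild type 3 and mutant 4, and between -0.22 and 0.33 with 1 array left out. The cause of these changes was not tested. Signal over background limits the members, 8644 of 12649 being well above it on all 8 arrays.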
